A study of Xenopus tropicalis with 18 samples.

Results

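Among 28850 *Xenopus tropicalis* genes, 51 were near 0 in 1 control replicate at late blastula and well above it in another. Their mean levels with and without knockdown of Foxi2 or Sox3 stayed within a set limit. These genes were chosen by their measured values. In the controls of the Foxi2 series at late blastula (stage 9) a gene had to lie below a CPM of 1 (CPM is the count scaled to the library's total) in replicate 1 and at or above 10 CPM in replicate 3. The log2 ratio of mean (CPM + 1) in morphants over controls then had to stay within 0.5 of 0, a factor of 1.41, in each of 4 tables. The added 1 CPM hides larger ratios at low levels. In the Sox3 series at stage 9, kiaa1324l had means of 0.0921 CPM in morphants and 0.389 CPM in controls. Genes whose symbols begin with the names of 14 families of early regulators (fox, sox, gata, dlx, hes, nodal, mix, tbx, ventx, zic, cdx, hox, fgf and wnt) were left out.

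The libraries came from poly(A) RNA of whole wild-type embryos. Foxi2 morphants at early gastrula (stage 10.5) had 2 libraries and their controls 2, Foxi2 morphants at stage 9 had 3 and their controls 3, and Sox3 morphants at each stage had 2 and their controls 2, which makes 18. Morphants received the Foxi2 or Sox3 morpholino (MO), an antisense oligonucleotide that binds the target's RNA, on the animal side of the embryo, at the 1-cell stage by the labels and at the 1-cell or 2-cell stage by the study's methods. The titles set the controls apart, while the treatment label reads morpholino for every library. What the controls received is thus not given in the labels, and the paper calls the controls wild-type embryos. Nothing in the labels says what a replicate number marks, and p-values measure the spread between these libraries, which may be technical. In whole embryos, fewer cells that express a gene and less RNA per cell cannot be told apart.

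Library totals ranged from 12740571 to 27866261 expected counts, RSEM's estimates of the reads from each gene, so that 3 counts correspond to between 0.108 and 0.235 CPM. Depth sets how small a level can be read, and such floors cover counting error only. Between Sox3 series replicates, the chi-square of the counts was 44.0 to 71.2 per gene, far more than sampling gives, and none of those libraries repeats another. RNA of the targeted genes was not lower where an MO was injected. The foxi2 transcript lay between 269.8 and 395 CPM in Foxi2 morphants, against 110.0 to 357 CPM in their controls, and sox3 lay between 907 and 1717 CPM in Sox3 morphants, against 449 to 705 CPM in theirs. A MO need not lower its target RNA, so these levels do not check the knockdown. By Western blot, the paper reports a substantial loss of the targeted proteins in morphants at both stages.

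In frogs the egg supplies the RNA and protein for the first divisions, and transcription of the embryo's own genome starts broadly at the mid-blastula transition. Foxi2 and Sox3 are maternal transcription factors of the future ectoderm. Genes that first appear in the late blastula take part in germ layer identity, axis formation, adhesion and the cell movements of gastrulation.

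Of the 28850 genes, 219 met both CPM limits on the Foxi2 series controls, called the onset here. Of these, 18 were in the left-out families, and 201 remained. The ratio limit held for 149 of the 201 in the Foxi2 series at stage 10.5, for 129 at stage 9, for 98 in the Sox3 series at stage 10.5 and for 139 at stage 9. It held in all 4 tables for 51, or 25.4% of the 201. Among all 12695 genes with a mean of at least 1 CPM, 82.1% met the same 4 limits, so the limit alone does not set the 51 apart. Nearest the ratio limit were apoc1, an apolipoprotein gene, at 0.497 and ric3, a chaperone of acetylcholine receptors, at 0.495. Just outside it were frzb at 0.507 and LOC105946181 at 0.515. At the lower onset limit, LOC100496939 at 0.978 and kirrel2 at 0.805 CPM were inside, and LOC116406485 at 1.02 and mmp17 at 1.15 CPM outside. For the upper one LOC548390 at 10.05 and ric3 at 10.2 CPM were inside, and pdgfd and pm20d1, both at 9.97 CPM, outside.

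All 51 were found in the RefSeq annotation of UCB_Xtro_10.0, as 47 protein-coding genes, 3 long non-coding RNA genes (LOC100495377, LOC100496939 and LOC105947658) and 1 pseudogene (LOC105945720). They lay on 10 chromosomes, with 11 on chromosome 1 and 8 on chromosome 6, and no start was within 1 Mb of another. The gene of the Wnt pathway factor Lef1 spans chr1:66958001-67040972. The endodermal gene darmin lies at chr6:100089914-100100436, irx3 at chr4:41850541-41854287 and znf750 at chr10:48171009-48180235. The median gene span was 15.9 kb, against 12.1 kb for the other 150 onset genes and 18.7 kb for the genes with a mean of at least 1 CPM. Spans under 3 kb belonged to 9 of the 51, or 17.6%. The share was 14.7% of the other onset genes, 5.55% of the genes with a mean of at least 1 CPM and 20.7% of all annotated genes. Over all annotated genes the median span was 12.2 kb. Of the 51, 15 carry only a LOC identifier, and no role is given here to those.

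**Figure D1:**
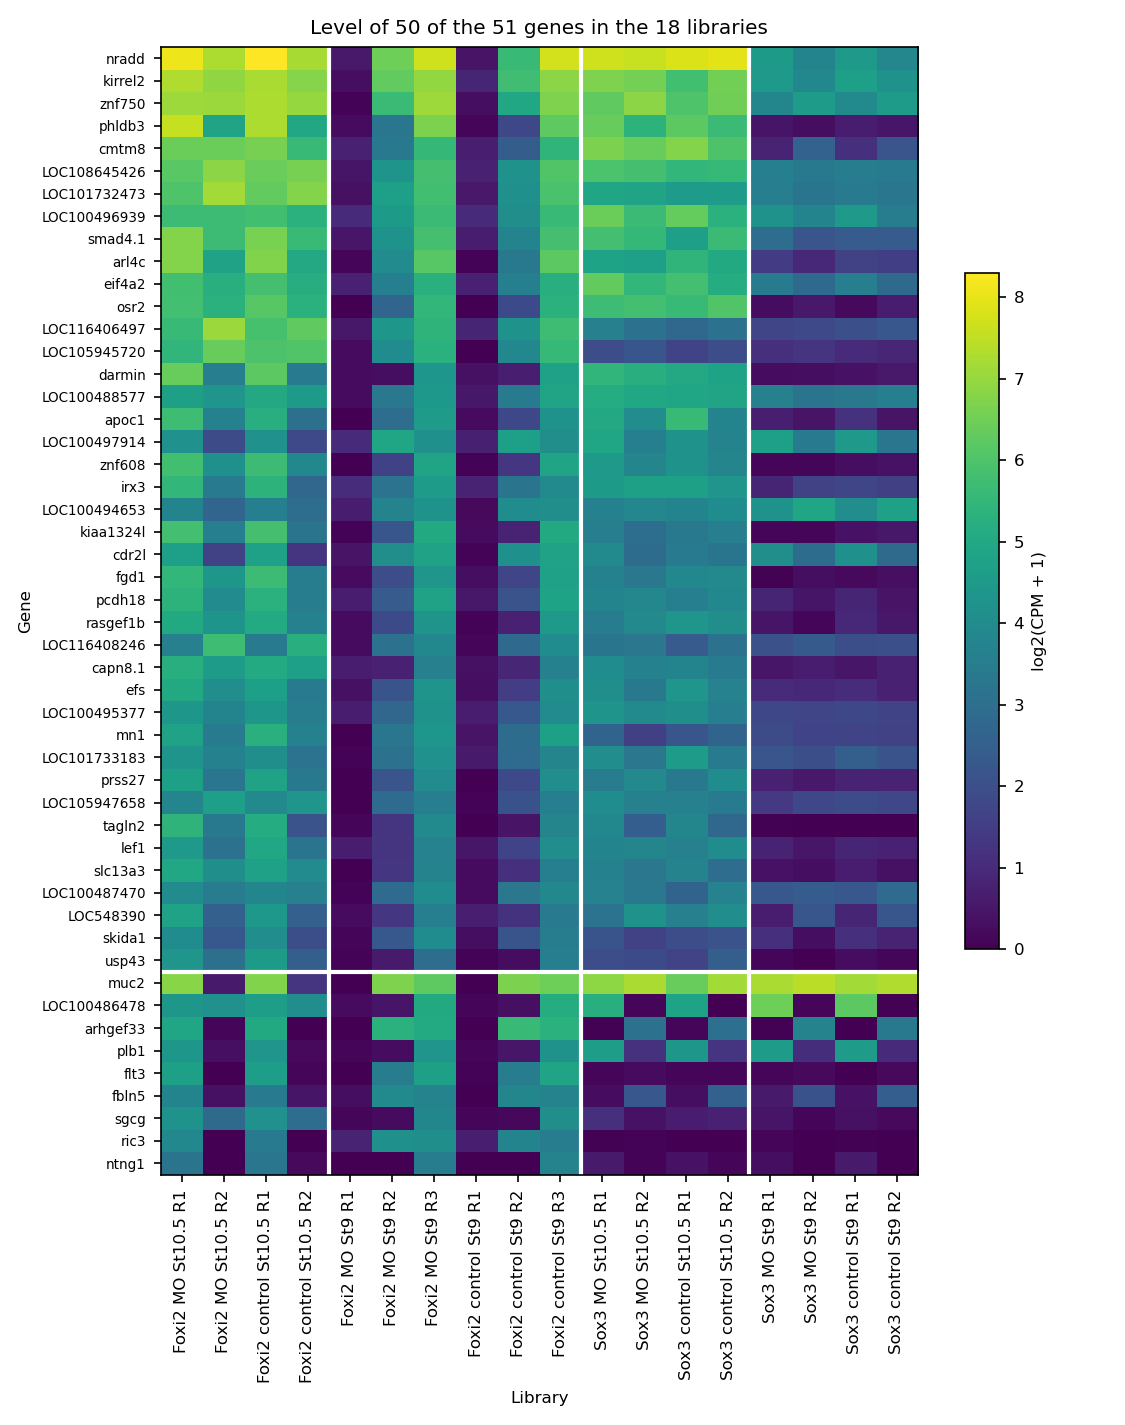
Level of 50 of the 51 genes (rows) in each of the 18 libraries (columns), as log2(CPM + 1) in color, with morphants left of controls and stage 10.5 left of stage 9. Below the white line are the 9 genes near 0 in both libraries of a stage 10.5 replicate number, in morphants and controls alike.

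The values that chose the genes came from replicates 1 and 3 of the Foxi2 series controls at stage 9, and the morphants of the same numbers followed them. Morphant replicate 1 was below 1 CPM for 48 of the 51 genes, and morphant replicate 3 was at or above 10 CPM for 50. Replicate 2 lay between replicates 1 and 3 for 45 genes in morphants and for 45 in controls. Gene by gene, its level as a percentage of replicate 3 had a median of 31.2% in morphants and 22.3% in controls. Summed over the 51 genes, replicates 1, 2 and 3 held 14.1, 731 and 1792 CPM in morphants, against 15.0, 579 and 1776 CPM in controls. The ratio limit ties the morphant means to the control means, so this likeness is partly built in. The rule also set control replicate 1 low and replicate 3 high, so a replicate 2 between them was largely set in advance. The other 150 onset genes had medians of 0.178, 8.17 and 22.2 CPM in morphant replicates 1, 2 and 3. In controls their medians were 0.230, 5.90 and 23.8 CPM. The onset in the rule is a difference between control replicates of one labelled stage.

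**Figure D2:**
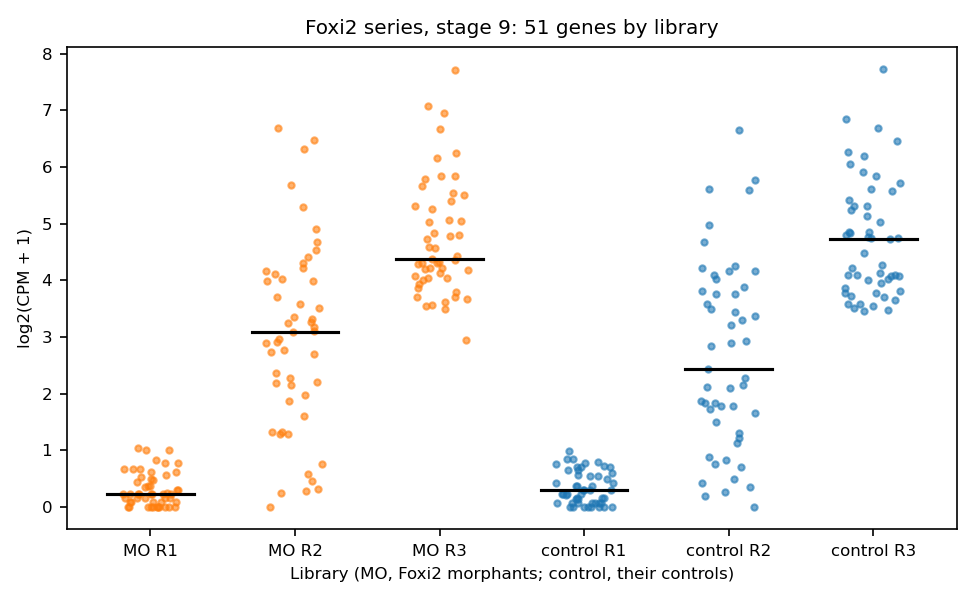
CPM of the 51 genes, as log2(CPM + 1), in the 3 Foxi2 morphant and 3 control libraries of stage 9, where each point is a gene and each bar a median. The median is near 0 in replicate 1, intermediate in replicate 2 and high in replicate 3, in morphants and controls alike. The rule set the levels of control replicates 1 and 3. Replicate 2 is below 1 CPM for 7 genes in morphants and 10 in controls. It is at or above replicate 3 for 5 genes in each.

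The Sox3 series gave the comparison that the onset limits did not use, stage 10.5 against stage 9. In Sox3 series controls 34 of the 51 genes were higher at stage 10.5 and none was lower (edgeR's quasi-likelihood test, Benjamini-Hochberg adjusted p under 0.05 and at least 2-fold). Among all 14903 genes tested, 1002 were higher, a background of 6.72%, and 1494 were lower, 10.0%. At an unadjusted p under 0.05, 37 of the 51 and 39.9% of all genes tested differed in either direction, and DESeq2 called 36 of the 51 and 4.94% of its genes higher. The median log2 fold change of the 49 genes that passed the filter on low counts was 2.47, against 0.0044 over all genes tested. The filter removed flt3 and ric3. Another 10 of the 51 (darmin, fgd1, kiaa1324l, ntng1, phldb3, sgcg, slc13a3, tagln2, usp43 and znf608) reached its level of 0.407 CPM in fewer than 2 of the 4 stage 9 libraries. They passed it through the stage in which they were high, and their calls are no support. Of the 39 genes that reached it in at least 2 stage 9 libraries, 26 were called higher. Of the other 150 onset genes 122 were called higher, with a median log2 fold change of 3.28, and the difference between the lists was not tested.

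In Sox3 morphants 35 of the 51 were higher at stage 10.5 and none was lower, beside a background of 7.27% higher and 8.7% lower, and 34 genes were called in both. The ratio limit ties morphant means to control means, so the morphant count follows from the control count and is no second measurement. Without any 1 library the control count lay between 28 and 34 and the morphant count between 31 and 36. In controls 6 of the 34 lost the call without stage 9 control replicate 1, among them znf750 (log2 fold change 1.76) and cmtm8 (4.58). Without stage 9 control replicate 2 also 6 calls were lost, among them kirrel2 (1.69) and LOC100496939 (1.64), which also lost it without stage 10.5 control replicate 1 (1.34). LOC101733183, LOC105945720, LOC116406497 and usp43, named after their values were seen, lost it without either stage 9 control. LOC101733183 also lost it without stage 10.5 control replicate 1. LOC105945720 also lost it without any 1 stage 10.5 library, and LOC116406497 without any 1 library of the Sox3 series.

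**Figure D3:**
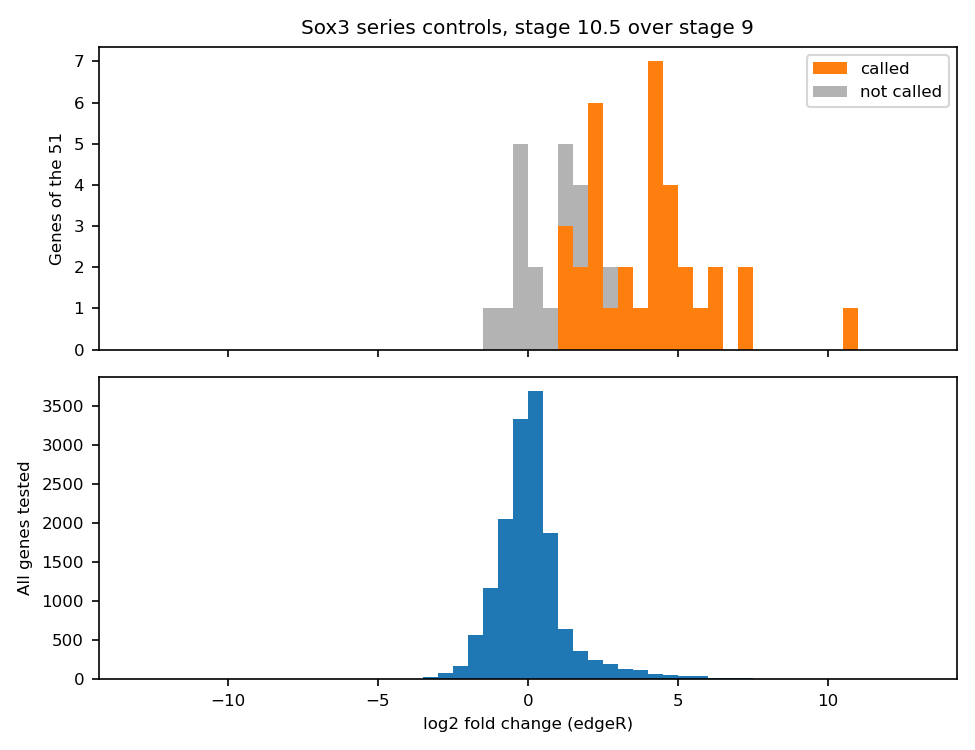
Distribution of the log2 fold change between stages in Sox3 series controls, for the genes of the 51 that were tested (top, 34 called in orange) and for all genes tested (bottom). The 34 called genes all lie right of 1, and 15 tested genes, in grey, were not called.

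The transcription factor genes named here were higher at stage 10.5 in the Sox3 series, and most of them were low at stage 9. The nuclear partner of beta-catenin, lef1, had 11.3 and 15.4 CPM in stage 10.5 controls, against 0.796 and 0.7 CPM in stage 9 controls, with a log2 fold change of 4.21 (SE 0.36, adjusted p 0.0007). Its morphant libraries held 12.5 and 12.8 CPM at stage 10.5, against 0.754 and 0.421 CPM at stage 9. The Iroquois homeobox gene irx3, which helps to pattern the neural plate, had 25.4 and 19.0 CPM in stage 10.5 controls, against 2.31 and 1.99 CPM at stage 9, a log2 fold change of 3.44 (SE 0.46, adjusted p 0.0028). No stage 10.5 library overlapped a stage 9 library for either gene.

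The odd-skipped zinc finger gene osr2 had 46.8 and 64.5 CPM in stage 10.5 controls, against 0.168 and 0.590 CPM at stage 9, a log2 fold change of 7.2 (SE 0.57, adjusted p 0.0007). For znf750, whose product promotes epidermal differentiation in mammals, stage 10.5 controls had 63.4 and 90.3 CPM, against 14.9 and 22.6 CPM at stage 9, with a log2 fold change of 2.09 (SE 0.40, adjusted p 0.010).

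Genes of other roles rose as well. Darmin, which encodes a peptidase-like secreted protein of the Xenopus endoderm, had 31.1 and 27.3 CPM in stage 10.5 controls, against 0.335 and 0.479 CPM at stage 9, a log2 fold change of 6.2. For tagln2, an actin-binding transgelin, stage 10.5 controls held 13.2 and 5.80 CPM, against no count in either stage 9 control, so it was at least 80.3-fold higher when set against 3 counts per library. In Sox3 morphants it was at least 82.5-fold higher by the same floor. Arl4c, a small GTPase acting on cell shape, had 41.8 and 31.9 CPM in stage 10.5 controls, against 2.1 and 1.92 CPM at stage 9, a log2 fold change of 4.27. The Cdc42 exchange factor gene fgd1 gave 6.03 and phldb3, which encodes a protein with a pleckstrin homology domain, gave 7.07 on the same scale. Of these 5 genes only arl4c passed the filter on its stage 9 levels.

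At the cell surface, the neurotrophin receptor-like gene nradd had 231 and 246 CPM in stage 10.5 controls, against 21.7 and 13.48 CPM at stage 9 (log2 fold change 3.83, SE 0.31, adjusted p 0.0007). Kirrel2, an adhesion protein of the immunoglobulin family, had 53.8 and 91.6 CPM in stage 10.5 controls, against 24.6 and 17.9 CPM at stage 9 (log2 fold change 1.83, SE 0.31, adjusted p 0.0067). Further rises on the same scale were 5.22 for cmtm8, a MARVEL-domain membrane protein, 3.16 for smad4.1, a partner Smad of TGF-beta signaling, and 5.29 for apoc1. LOC108645426 rose by 2.24, LOC101732473 by 1.35 and LOC100496939 by 2.01. Chosen after their values were seen, the protocadherin gene pcdh18 rose by 4.48, the dicarboxylate transporter gene slc13a3 by 4.58, the zinc finger gene znf608 by 5.74 and eif4a2, an RNA helicase of translation initiation, by 2.47. Slc13a3 and znf608 passed the filter through stage 10.5, so their calls are no support. Among the 34 called genes 19 changed at least 16-fold and 5 changed less than 4-fold. The 19 include the 8 called genes that passed the filter through stage 10.5, whose calls are no support. The share of all genes at these sizes was not computed, so nothing is read from the 2 counts.

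The 15 tested genes that were not called in controls included several already high at stage 9. The intestinal mucin gene muc2 had 81.1 and 141 CPM in stage 10.5 controls, against 142 and 156 CPM at stage 9 (log2 fold change -0.37, adjusted p 0.35). For LOC100494653, stage 10.5 controls had 12.3 and 15.6 CPM, against 15.7 and 26.2 CPM at stage 9 (log2 fold change -0.54, adjusted p 0.31). Cdr2l had 9.81 and 8.31 CPM in stage 10.5 controls, against 17.1 and 6.37 CPM at stage 9 (log2 fold change -0.29, adjusted p 0.79). Over the 51, the control mean at stage 9 in the Sox3 series was at least 10 CPM for 11 genes and below 1 CPM for 23. The 51 genes thus differed in their stage course in the Sox3 series. No library came from before stage 9, so whether each gene is zygotic was not tested.

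A group of 9 genes was near 0 at stage 10.5 in both libraries of at least 1 replicate number. They are LOC100486478, arhgef33, fbln5, flt3, muc2, ntng1, plb1, ric3 and sgcg, grouped after their values were seen, with a limit of 2 CPM. In 8 of them another replicate number of the same table was at 5 CPM or more. At stage 10.5 flt3, ntng1, ric3 and sgcg were low in both numbers of the Sox3 series. Of these only sgcg was present in both numbers of the Foxi2 series. Of the 9, flt3 and ric3 were removed by the filter and not tested, and none of the others was called between stages without a replicate block. All 34 calls in controls came from the other 42. Low levels at stage 10.5 chose the group, so this split was largely set in advance and nothing is read from it. The gene arhgef33, which encodes a guanine nucleotide exchange factor, had 0.0396 and 7.83 CPM in Sox3 morphants at stage 10.5, against 0.0838 and 7.17 CPM in their controls, and 0.0359 and 12.2 CPM in morphants at stage 9, against 0 and 9.14 CPM in controls. Replicate 1 was thus near 0 and replicate 2 was not, in all 4 Sox3 groups.

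LOC100486478 ran the other way, with 36.3 and 0.0967 CPM in Sox3 morphants at stage 10.5, against 27.2 and 0 CPM in controls, and with 87.4 and 0.115 CPM in morphants at stage 9, against 72.7 and 0.0368 CPM in controls. The phospholipase gene plb1 behaved likewise, at 23.8 and 1.28 CPM in Sox3 morphants at stage 10.5, against 20.2 and 1.42 CPM in controls. In these genes replicate 1 was high and replicate 2 low at both stages. The stage estimates of arhgef33 (log2 fold change -0.33, SE 2.86) and LOC100486478 (-1.30, SE 3.15) have errors larger than themselves in the fit without a replicate block. With the replicate number as a block LOC100486478 was called lower at stage 10.5 in controls (-1.29, SE 0.24) and in morphants (-1.18, SE 0.24), and arhgef33 was not called (-0.22, SE 0.37, in controls).

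The receptor tyrosine kinase gene flt3, known for its role in blood progenitors, was near 0 throughout the Sox3 series. At stage 10.5 it had 25.5 and 0 CPM in Foxi2 morphants, against 23.5 and 0.0761 CPM in controls. Its 4 Sox3 series libraries of stage 10.5 were between 0.0838 and 0.193 CPM. Ric3 had 13.7 and 0 CPM in Foxi2 morphants at stage 10.5, against 9.57 and 0 CPM in controls, and muc2 had 114 and 0.526 CPM, against 105.2 and 1.45 CPM. Fbln5 (an elastic fiber protein), ntng1 (an axon guidance protein) and sgcg (a muscle sarcoglycan) completed the group. What a replicate number stands for was not tested.

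**Figure D4:**
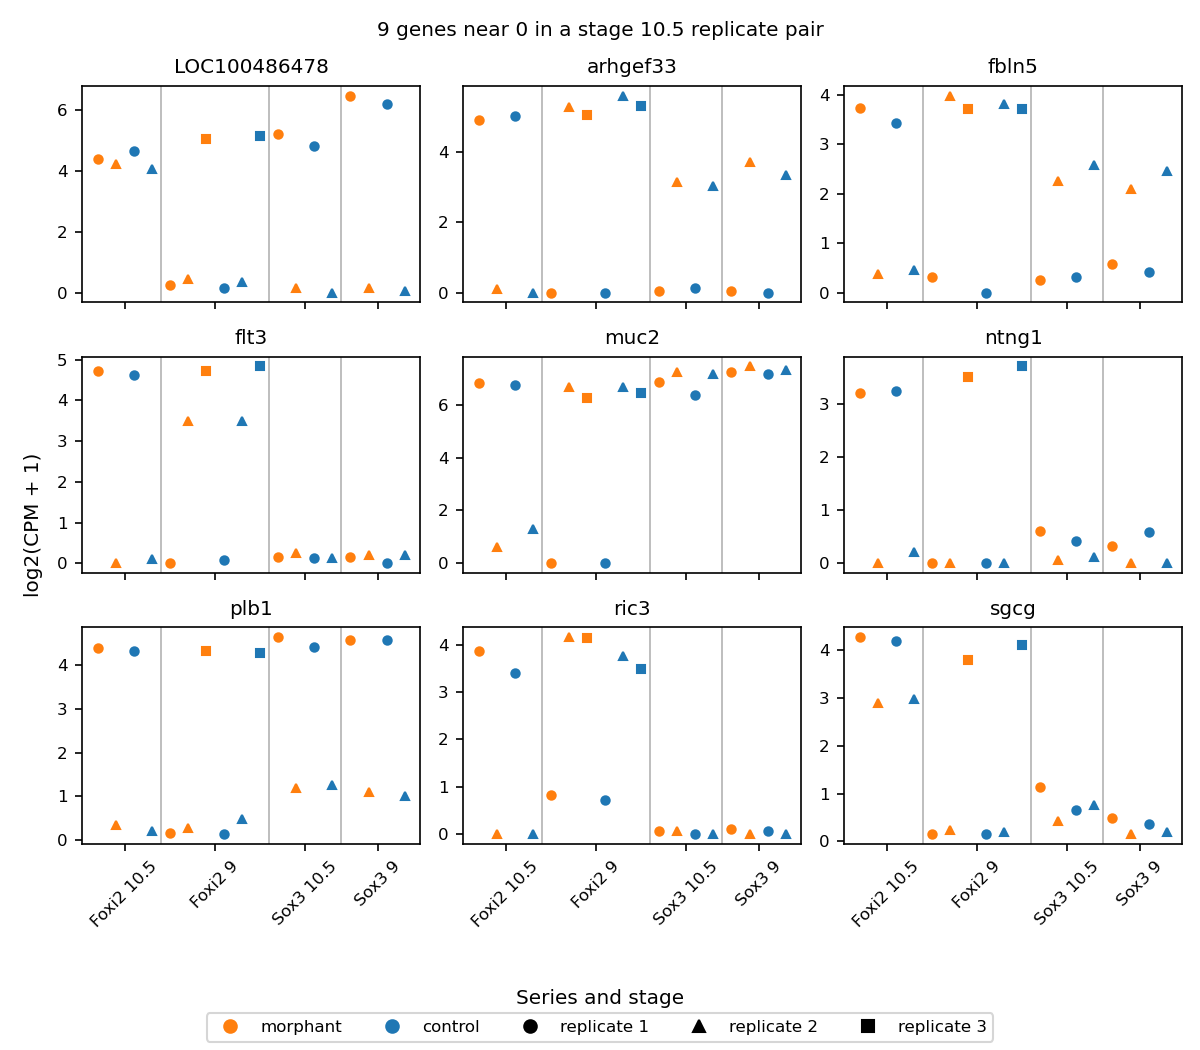
CPM, as log2(CPM + 1), of the 9 genes near 0 in both libraries of a stage 10.5 replicate number, with morphants in orange, controls in blue and the replicate number as the symbol. Except for sgcg in the Sox3 series, morphant and control of 1 number lie close where the numbers differ widely, as for plb1 at 23.8 and 20.2 CPM in replicate 1 and 1.28 and 1.42 CPM in replicate 2 of the Sox3 series at stage 10.5.

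The Foxi2 series showed a shared difference between replicate numbers at stage 10.5 for most of the 51. Replicate 2 was lower than replicate 1 in both morphants and controls for 45 genes and higher in both for 6. It was at least 2-fold lower, on CPM + 1, in both for 27 genes, while 4.29% of the 12695 genes with a mean of at least 1 CPM did so. Phldb3 had 187 and 27.7 CPM in Foxi2 morphants, against 156 and 30.8 CPM in controls, and darmin had 82.6 and 10.6 CPM, against 72.5 and 9.89 CPM. The 6 genes that were higher in replicate 2 were LOC101732473, LOC105945720, LOC105947658, LOC108645426, LOC116406497 and LOC116408246, and each spans less than 3 kb. All but LOC105947658 had fractional expected counts. RSEM splits reads between near-identical genes, so their levels are less certain. LOC116406497 had 48.6 and 132 CPM in Foxi2 morphants, against 58.5 and 75.9 CPM in controls. Among the 45 others 3 span less than 3 kb. These groups were seen in the data and not tested.

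The control levels at stage 10.5 also differed between the Foxi2 and Sox3 series, each of which had controls of its own. The series and any other difference between their embryos or libraries cannot be told apart. Both Foxi2 series controls exceeded both Sox3 series controls for 13 of the 51 genes, and the reverse held for LOC100494653 alone, beside 29.4% and 28.0% of the genes with a mean of at least 1 CPM. The rule asked for at least 10 CPM in a Foxi2 series control, which favors the first direction, so nothing is read from the split. The pseudogene LOC105945720 had 62.5 and 65.0 CPM in Foxi2 series controls, against 2.23 and 2.86 CPM in Sox3 series controls. The muscle gene sgcg had 17.4 and 6.85 CPM, against 0.587 and 0.704 CPM. The ranges overlapped for the other 37 genes.

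Morphant and control means were kept close by the rule, so the ratios are described without a test. The median log2 ratio of the 51 was 0.081 in the Foxi2 series at stage 10.5, 0.030 at stage 9, 0.094 in the Sox3 series at stage 10.5 and -0.040 at stage 9. Past 0.5 in either direction were 7.24%, 5.14%, 11.3% and 3.59% of the genes with a mean of at least 1 CPM in these 4 tables, and by the rule none of the 51. For the other 150 onset genes the median was -0.035, -0.15, -0.11 and -0.29 in the same 4 tables. In the Sox3 series at stage 9, a control mean below 0.414 CPM cannot leave the limit by dropping to 0, which was so for 11 of the 51, and at stage 10.5 for 3.

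Single pairs of libraries with the same number varied more than the means. The rule capped the ratios of means and not those of single pairs, so this was largely set in advance. In 9 such pairs 20 of the 51 genes stayed within 0.5, 31 passed it at least once and 8 reached 1. In a single pair 1.17% to 15.7% of the genes with a mean of at least 1 CPM were at least 0.5 higher. Between 2.35% and 8.85% were at least 0.5 lower. Their share over the 9 pairs together was not computed, so nothing is read from these counts. Among the 20 were darmin and, chosen after their values were seen, pcdh18, prss27 and slc13a3. In replicate 2 of the Foxi2 series at stage 9, 40 of the 51 were higher in the morphant and 15 by at least 0.5, with a median of 0.25, while 5.30% of the genes with a mean of at least 1 CPM were at least 0.5 higher and their median was -0.013. The other 150 onset genes had a median of 0.36 in this pair. Phldb3 had 8.54 CPM in that morphant and 2.45 CPM in the control, a log2 ratio of 1.47, while replicates 1 and 3 gave 0.079 and 0.40. Apoc1 reached 1.18 in the same pair, and tagln2 1.25 in replicate 2 of the Foxi2 series at stage 10.5. In replicate 1 of the Sox3 series at stage 10.5, smad4.1 had 56.2 CPM in the morphant and 24.7 CPM in the control, a log2 ratio of 1.15, against -0.14 in replicate 2.

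**Figure D5:**
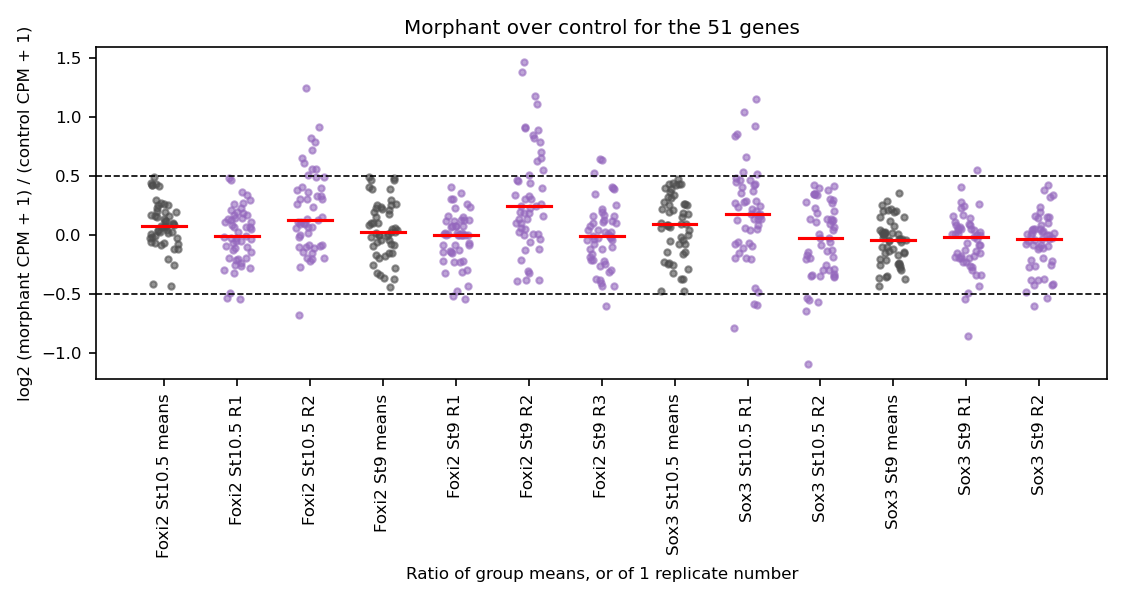
Log2 ratio of (CPM + 1) in morphants over controls for the 51 genes, from group means in grey and from each pair of libraries with the same number in purple, with medians in red and the limits of 0.5 dashed. By the rule all means lie inside the limits, while single pairs, which it did not cap, pass them. In replicate 2 of the Foxi2 series at stage 9, 15 genes are at least 0.5 higher in the morphant.

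In the Foxi2 series at stage 10.5, nearness of the means did not come with nearness of the replicates. Replicates 2 and 1 of the Foxi2 series controls at stage 10.5 differed by a median absolute log2 of 1.43 over the 51, against 0.35 over the genes with a mean of at least 1 CPM, and the median absolute morphant ratio of the 51 was 0.12. The rule chose genes that differed between replicates of the Foxi2 series controls at stage 9, so all genes are no neutral background here. The replicate difference exceeded the morphant ratio for 50 of the 51. The rule caps that ratio at 0.5, so this count was largely set in advance. Its share over all genes was not computed. In Sox3 series controls the median absolute difference between replicates was 0.45 at stage 10.5 and 0.25 at stage 9, against 0.31 and 0.22 over the genes with a mean of at least 1 CPM. The median absolute morphant ratio was 0.23 and 0.15 in those 2 tables. A ratio of means inside the limit does not show that the MO had no effect on a gene.

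Among 483 genes on 13 lists of early embryonic roles, 32 were in the set of 201 onset genes and 7 of these were among the 51. Of the 7, those reported here are lef1 (Wnt antagonists and targets), arl4c and tagln2 (cytoskeleton, adhesion and morphogenesis), irx3 (ectoderm, homeobox), darmin (endoderm) and znf750 (other transcription factors). Of 9 onset genes on the organizer list none was among the 51, and of 9 on the ectoderm list 1 was. Of 4 onset genes on the endoderm list 2 were, of 3 on the mesoderm list none, and of 3 on the list of BMP and ventral genes none. Beside these shares, 25.4% of all 201 onset genes were among the 51, and with counts this small nothing particular to a list is read from them.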

How the data were processed

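Poly(A) RNA-seq of whole embryos was analysed in 18 libraries, matched to groups by the titles in the labels. Per the methods of the study, the authors used STAR and RSEM on the V10.0 genome, and the submitters' processing notes name RSEM 1.2.12 and Bowtie2 2.2.7. They deposited expected counts per gene, 28850 in each of 4 tables, and no column was left out. The totals differ between libraries, so the values were taken as unscaled. RSEM splits reads between near-identical genes, so such genes are less certain. DESeq2 was the authors' tool.

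CPM were computed from each column's total. For stages, expected counts of the 8 Sox3 libraries were rounded, filtered with filterByExpr, scaled with TMM and fitted in 1 model of 4 groups with edgeR 4.0.16 in R 4.3.3 (glmQLFit, glmQLFTest). A call needed an adjusted p under 0.05 and a log2 fold change of at least 1. The fit was tried on simulated data with known changes, in which libraries were independent and their spread was smaller than in these data. That trial checks the code and not the calls. Morphants and controls were not tested, since the choice of genes used them.

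Alternatives were DESeq2 1.42.0, no TMM, no filter, a replicate block, only the 4 libraries compared, no fold threshold, each library left out and other limits of the rule. Leaving out pairs of libraries, and leaving out the 9 genes near 0, were chosen after seeing the data.

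The 51 genes and the lists were chosen with earlier results of these data known. Named are members on the role lists, the 10 highest by mean CPM, the 5 largest and 5 smallest stage changes in Sox3 controls and the genes nearest each limit. A gene that the rule names is not reported here. Gene spans come from RefSeq for UCB_Xtro_10.0, and 26531 symbols matched. No sequences or exons were used here.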

Additional observations from a re-analysis of the deposited data

Results flagged for a closer look

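Some of the 51 genes had morphant and control levels in opposite order at the 2 stages, in every pair of libraries with the same number, and none of these differences was tested. All 5 in the Sox3 series and the 1 in the Foxi2 series have ratios inside the limit of 0.5 by the rule. For the Sox3 MO the log2 ratio of means was 0.44 at stage 10.5 and -0.20 at stage 9 for darmin, 0.44 and -0.26 for kirrel2, 0.43 and -0.10 for eif4a2, 0.15 and -0.24 for znf608, and -0.14 and 0.16 for LOC100494653. For the Foxi2 MO darmin gave 0.17 at stage 10.5 and -0.37 at stage 9. Such opposite order held for 9.80% of the 51 in the Sox3 series and 1.96% in the Foxi2 series, against 8.72% and 2.67% of the 12695 genes with a mean of at least 1 CPM. No group had enough libraries to look for a single library far from the others.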

How the results depend on the processing

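The number of genes that meet the rule moved from 51 to 33 with a ratio limit of 0.4, 68 with 0.6, 45 with a pseudocount of 0.5, 109 with 5 CPM in control replicate 3 and 53 with TMM sizes. Leaving out a single library from a ratio gave 5 (without Foxi2 control replicate 3 at stage 9) to 50, since morphants and controls of other numbers were then compared. The list of 50, without Sox3 morphant replicate 1 at stage 10.5, held 38 of the 51. Leaving out both libraries of a number gave 41 to 54, and these lists held 38 to 49 of the 51. Counts between stages in the Sox3 series stayed within 1.5 times for the 51 under every alternative. Over all genes, 2496 were called in controls and 2381 in morphants, with 4219 and 3885 without the fold threshold, and leaving out a library gave 1486 (without control replicate 2 at stage 9) to 2633 and 1584 (without morphant replicate 2 at stage 10.5) to 2366. Of the 33 genes whose stage change was recomputed, 4 changed sign when a library was left out, none of them called in the main comparison: LOC100486478 ranged from -12.78 to 8.34 in controls and -8.68 to 7.24 in morphants, arhgef33 from -5.64 to 9.51 and -7.09 to 6.68, and cdr2l from -0.78 to 0.50 and -0.73 to 0.69, and mn1 from -0.30 to 1.14 in morphants. The cause was not tested.

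With the replicate number as a block, 37 of the 51 were called in controls and 39 in morphants, 1 of them lower in each, LOC100486478, and 3278 and 3208 of all genes were called. Deviations of same-numbered Sox3 libraries from their group means correlated at 0.65 to 0.795 in all 6 pairs of groups, and the block lowered the common biological coefficient of variation to 0.133, against 0.351 without it. The fit without the block was kept as the main one because no source says what a number marks and each comparison has only 2 numbers, so the calls without the block may be too few. Exon numbers and promoter letters were not analysed here, so the alternatives on exons were not run. Levels of at most 3 counts cannot be read, which held for 4 and 5 of the 51 in the Sox3 controls at stage 9.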
